A study of Mus musculus with 24 samples.

Results

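Muscle tissues stimulated with light at 4 Hz were compared with tissues stimulated at 1 Hz, using 12 of the 24 RNA sequencing (RNA-seq) libraries of the study, 6 per frequency, chosen by the frequency in the sample titles. Each library came from a 2D tissue of C2C12 cells, which are mouse myoblasts that form multinucleated fibers once serum is reduced or replaced. The cells of all groups carried ChR2::tdTomato, a blue light-gated cation channel fused to a red fluorescent protein, and were grown on a grooved fibrin hydrogel in differentiation medium with horse serum and IGF-1. Light was given for 30 min each day at 1, 4, or 10 Hz, control tissues received none, and RNA was taken at the end of about 14 days of differentiation. Tissues of every condition were also described as twitching spontaneously, so the frequencies label the light and not all contractions. All tissues came from 1 engineered line. The sources used here do not state the time from the last light bout to lysis.

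Skeletal muscle contracts when depolarization of the surface membrane releases calcium from the sarcoplasmic reticulum, and the same calcium, together with kinases that respond to activity, acts on transcription. Immediate-early genes such as Fos, Egr1, and Arc are the first to respond, because their promoters are served by transcription factors that are already present and need only be phosphorylated. Many of their products are transcription factors or feedback phosphatases with short-lived mRNAs, so their level in a lysate depends strongly on when it was made.

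The libraries held 4.09 to 15.2 M (mega) counts at 1 Hz and 7.55 to 11.5 M at 4 Hz. The mean total was 8.16 ± 3.98 M at 1 Hz and 9.12 ± 1.67 M at 4 Hz (SD, n = 6 each, 2-sided exact permutation p = 0.610). Small non-polyadenylated RNA took 15.1 ± 9.45 and 16.1 ± 5.86 CPM (counts scaled to a library total of 1 M) of the total (SD, n = 6, exact permutation p = 0.827), against 77.5 ± 18.2 CPM in control and 82.7 ± 55.5 CPM at 10 Hz (SD, n = 6). All 15 fiber markers, from creatine kinase to titin, were expressed, and their summed level was 14378 to 18959 CPM at 1 Hz and 14933 to 21664 CPM at 4 Hz. The sum of 12 myoblast and reserve cell markers was 1484 to 1878 CPM and 1385 to 1799 CPM. Of 8 endothelial markers, 3 were at 0 in all libraries of each frequency and the sum did not exceed 2.33 CPM, whereas 12 fibroblast markers summed to 672 to 953 CPM and 525 to 769 CPM. In bulk RNA, fewer cells of a type and less RNA per cell cannot be told apart. Library 1 of the 1 Hz group stood apart with the highest small RNA level of the 12 (32.9 CPM), and libraries 3, 4, and 5 of the 4 Hz group stood apart with 3.47, 3.90, and 4.71% of counts from the mitochondrial genome, so calls that were lost without these 3 libraries are given below with their value or adjusted p. That fit holds fewer 4 Hz libraries, and a call can lose its adjusted p in it with little change in fold change. All sums over a list and the small RNA values are shares of the unscaled library total. The CPM of single genes are on TMM-scaled totals.

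Of 13318 genes tested, 212 were higher (1.59%) and 187 lower (1.40%) at 4 Hz than at 1 Hz, where a call needed an adjusted p below 0.05 in the edgeR quasi-likelihood test and a log2 fold change beyond 0.5 either way. Among the gene lists examined with at least 10 genes tested, the immediate-early genes held the largest share of lower genes (15 of 31). The genes that rose included 6 of the 13 protein-coding genes of the mitochondrial genome. They also included 4 of 14 Hox genes, a list chosen after its values were seen. Without 4 Hz libraries 3, 4, and 5, these counts were 9 immediate-early genes lower, and 0 mitochondrial and 2 Hox genes higher. Most differences were small. The log2 fold changes (4 Hz minus 1 Hz) of all genes had a median of -0.0049 and their 5th and 95th percentiles were -0.40 and 0.50, while 39 higher and 26 lower genes exceeded 2-fold. With the adjusted p alone, 761 genes were higher (5.71%) and 873 lower (6.56%). The 6 and 6 libraries did not overlap for 316 genes higher (2.37%) and 443 lower (3.33%) at 4 Hz, including 85 of the 212 and 103 of the 187. Protein-coding genes made up 97.9% of the lower genes and 81.6% of the higher ones, against 90.0% of all genes tested, and the higher genes included 25 long noncoding RNAs against 3 among the lower.

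The split between higher and lower genes depended on the scaling. On log2(TPM + 1), where TPM is the length-scaled share of transcripts, limma called 56 genes higher and 404 lower, so that 12.2% of calls were higher in place of 53.1%, and the median of all genes shifted to -0.10. After the TPM values of each library were centered on their median, 198 were higher and 113 lower (63.7% higher). Fold changes also followed transcript length. The median log2 fold change was 0.16, 0.04, -0.02, -0.06, and -0.11 over 5 equal classes of genes from the shortest to the longest, and after correction for length and GC content it lay between -0.03 and 0.03, with 166 genes higher and 156 lower, 249 of them among the 399 original calls. Without 1 Hz library 5, 134 genes were higher, and without 4 Hz libraries 3, 4, and 5, 106 were higher and 120 lower, of which 133 were among the original calls.

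Immediate-early genes were mostly lower at 4 Hz. All 31 listed genes were tested, of which 15 were lower and 1 was higher, against 1.40% and 1.59% of all genes, and the median log2 fold change was -0.59. With the adjusted p alone, 20 were lower and 1 higher (6.56% and 5.71% of all genes), and in 16 of the 31 all 6 libraries at 4 Hz lay below all 6 at 1 Hz (3.33% of all genes). Without 4 Hz libraries 3, 4, and 5, the median was -0.46 and 9 genes were lower. After the correction for length and GC content it was -0.50 with 15 lower, and over the 12 fits that left out 1 library each, 15 or 16 genes were lower. The plot of the 31 fold changes shows Fosb at the low end and Junb at the high end.

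**Figure D1:**
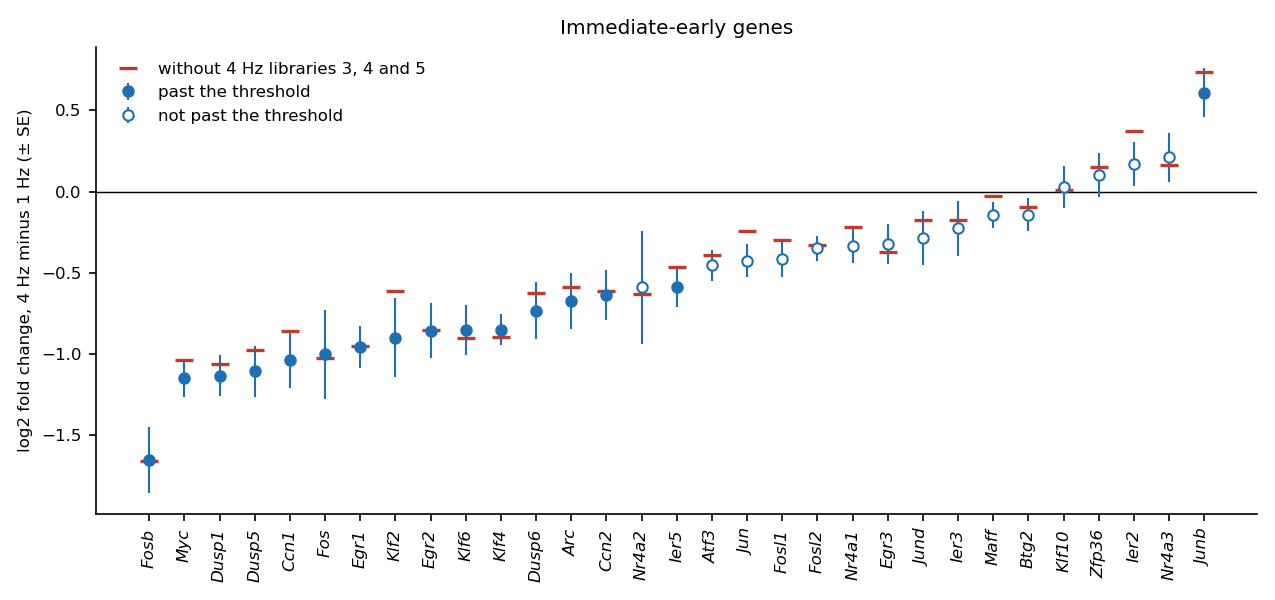
Log2 fold change (4 Hz minus 1 Hz) with its SE for the 31 immediate-early genes, ordered by value, where filled points passed the threshold and red bars give the value without 4 Hz libraries 3, 4, and 5. The points run from -1.66 for Fosb to 0.61 for Junb, and 26 of the 31 lie below 0.

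Among the AP-1 factors, which pair Fos and Jun proteins on DNA, Fosb (chr7:19036621-19043976 in GRCm39, 4 exons) ranged from 23.9 to 47.1 CPM at 1 Hz (median 44.2 CPM) and 10.3 to 15.5 CPM at 4 Hz (median 13.2 CPM). The lowest 1 Hz value was that of library 1, and it still exceeded every 4 Hz library. Fosb was thus 3.15-fold lower at 4 Hz (log2 fold change -1.66 ± 0.20 SE, adjusted p = 1.03e-05). The lowest, median, and highest values of Fos were 9.55, 11.2, and 18.1 CPM at 1 Hz and 4.74, 5.92, and 7.86 CPM at 4 Hz (log2 fold change -1.003 ± 0.27, adjusted p = 0.0171), again without overlap, though without 4 Hz libraries 3, 4, and 5 the adjusted p was 0.103. Junb, whose product competes with other Jun proteins for Fos partners, went the other way, from 193 to 351 CPM at 1 Hz (median 275 CPM) and 341 to 583 CPM at 4 Hz (median 395 CPM). Its groups overlapped, the log2 fold change was 0.61 ± 0.15 (adjusted p = 0.00948), and without 4 Hz library 6 it was 0.50 and no longer called. Jun, Fosl1, and Fosl2 had log2 fold changes of -0.43, -0.41, and -0.35, past the adjusted p but not past 0.5.

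The EGR zinc finger factors followed the same direction. Egr1 ranged from 199.6 to 291 CPM at 1 Hz (median 227 CPM) and 107 to 130.4 CPM at 4 Hz (median 123 CPM), with no overlap, and was 1.94-fold lower (log2 fold change -0.96 ± 0.13, adjusted p = 3.19e-05). Egr2 had a median of 24.1 CPM at 1 Hz (range 16.2 to 30.6) and of 13.6 CPM at 4 Hz (range 12.7 to 14.4) without overlap (log2 fold change -0.86 ± 0.17, adjusted p = 0.00176), whereas Egr3 did not pass the test (-0.32 ± 0.12, adjusted p = 0.0782). Klf4 and Klf6, Krüppel-like factors that respond to serum and stress, had log2 fold changes of -0.85 ± 0.10 and -0.85 ± 0.16 (adjusted p = 3.58e-06 and 0.000913), and the groups of each did not overlap. Myc (chr15:61857227-61862223), which drives ribosome production and growth, ranged from 68.0 to 104 CPM at 1 Hz (median 87.4 CPM) and 35.1 to 51.2 CPM at 4 Hz (median 37.1 CPM) and was 2.22-fold lower (log2 fold change -1.15 ± 0.12, adjusted p = 5.51e-07). Every 4 Hz library lay below every 1 Hz library for Myc, including 4 Hz library 6, the highest of its group. Arc, a cytoskeleton-associated protein best known from synapses, ranged from 106 to 219 CPM at 1 Hz (median 176 CPM) and 79.6 to 152 CPM at 4 Hz (median 109 CPM) with some overlap (log2 fold change -0.67 ± 0.17, adjusted p = 0.0116, or 0.132 without 4 Hz libraries 3, 4, and 5). The nuclear receptors Nr4a2 and Nr4a3, known exercise-responsive genes of muscle, did not pass (-0.59 ± 0.35 and 0.21 ± 0.15), and Nr4a1 passed only the adjusted p (-0.33 ± 0.11, adjusted p = 0.0404).

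Dual-specificity phosphatases remove the activating phosphates of MAP kinases and so close a feedback loop on the kinases that induce them. Dusp1 ranged from 67.2 to 92.1 CPM at 1 Hz (median 70.3 CPM) and 28.9 to 41.7 CPM at 4 Hz (median 32.6 CPM), and Dusp5 (chr19:53517532-53530862) from 52.6 to 76.9 CPM at 1 Hz (median 68.4 CPM) and 24.9 to 36.5 CPM at 4 Hz (median 31.0 CPM). Neither gene's groups overlapped, and the log2 fold changes were -1.13 ± 0.13 (adjusted p = 2.98e-06) and -1.11 ± 0.16 (adjusted p = 8.51e-05). Over the whole family, chosen after its values were seen, 5 of 21 tested members were lower and 0 higher with a median of -0.14, and with the adjusted p alone 8 were lower and 1 higher, against 1.40% and 6.56% of all genes lower. The other members called were Dusp4 (-0.90 ± 0.14, adjusted p = 0.000138), Dusp10 (-0.89 ± 0.09, adjusted p = 9.04e-07), and Dusp6 (-0.73 ± 0.17, adjusted p = 0.00700), all without overlap. The adjusted p of Dusp6 was 0.110 without 4 Hz libraries 3, 4, and 5.

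The promoters of the lower immediate-early genes that held a cAMP response element (CRE, TGACGTCA) or a CArG box, the site of serum response factor, are shown because these are the classic elements through which calcium and growth signals reach such genes. The sequences are the 250 bases before the RefSeq start in GRCm38.p6, an older build than that of the gene positions above, 5′ to 3′, with the matched element in capitals. Dusp1 lies on the minus strand (chr17:26508473-26508722) with its CRE 143 to 136 bases upstream of the start. Dusp5 (plus strand, chr19:53528895-53529144) holds a pair of CArG boxes 82 to 73 and 72 to 63 bases upstream. Egr2 (plus strand, chr10:67537316-67537565, 1 of 5 listed promoters) holds 1 CArG box 72 to 63 bases upstream.
Dusp1: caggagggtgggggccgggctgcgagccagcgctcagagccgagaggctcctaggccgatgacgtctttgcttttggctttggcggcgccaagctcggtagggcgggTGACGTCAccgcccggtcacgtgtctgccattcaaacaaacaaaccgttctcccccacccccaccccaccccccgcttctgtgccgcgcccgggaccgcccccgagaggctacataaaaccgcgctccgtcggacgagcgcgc
Dusp5: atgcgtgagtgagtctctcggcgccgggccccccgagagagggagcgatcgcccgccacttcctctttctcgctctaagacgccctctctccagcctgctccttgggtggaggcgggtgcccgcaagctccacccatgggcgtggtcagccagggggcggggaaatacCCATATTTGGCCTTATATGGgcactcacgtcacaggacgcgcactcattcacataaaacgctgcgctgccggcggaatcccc
Egr2: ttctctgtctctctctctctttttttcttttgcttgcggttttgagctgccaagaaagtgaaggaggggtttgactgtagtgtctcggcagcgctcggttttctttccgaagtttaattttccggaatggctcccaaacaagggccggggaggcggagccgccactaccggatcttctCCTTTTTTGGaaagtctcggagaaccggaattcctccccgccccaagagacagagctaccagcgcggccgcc
On either strand, a CRE was found in 508 of 32851 promoters listed (1.55%) and a CArG box in 482 (1.47%). Of the 31 immediate-early genes 23 were in the table, and 3 of these held a CRE and 3 a CArG box, while of the 11 lower members listed there, a CRE was in 1 and a CArG box in 2. Over all lower genes, 6 of 130 in the table held a CRE (4.62%) and 3 a CArG box (2.31%), against 3.03% and 1.48% of the 9848 tested genes in the table. The AP-1 site TGANTCA was found in 0 of the 23 immediate-early genes, against 5.68% of the tested genes listed and 6.75% of all promoters. The EGR site GCGTGGGCG was found in 1 of the 23, against 1.26% of the tested genes listed and 0.536% of all promoters. None of the elements shown overlapped another of the motifs searched, and the matches describe letters in the window and not binding.

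Outside that list, genes for signaling proteins were among the largest decreases. Sgk1 (chr10:21758083-21875802, 12 exons), a serum- and glucocorticoid-induced kinase that acts downstream of PI3 kinase, ranged from 307 to 572 CPM at 1 Hz (median 433 CPM) and 167 to 197 CPM at 4 Hz (median 184 CPM). All 6 values at 4 Hz lay in a narrow band below the lowest at 1 Hz, and the gene was 2.38-fold lower (log2 fold change -1.25 ± 0.11, adjusted p = 2.34e-07). Csrnp1 (chr9:119800228-119815025), a nuclear protein induced by AXIN1, was 2.40-fold lower, from 85.6 to 135 CPM at 1 Hz (median 115 CPM) and 41.8 to 56.6 CPM at 4 Hz (median 46.5 CPM) (log2 fold change -1.26 ± 0.12, adjusted p = 2.34e-07). Nos2, the inducible nitric oxide synthase, had a median of 77.0 CPM at 1 Hz (range 58.8 to 101) and of 29.7 CPM at 4 Hz (range 18.3 to 35.1), without overlap (log2 fold change -1.46 ± 0.25, adjusted p = 0.000512). Irs2, which couples the insulin and IGF-1 receptors to PI3 kinase, had lowest, median, and highest values of 31.6, 38.2, and 48.0 CPM at 1 Hz and 13.2, 17.0, and 27.2 CPM at 4 Hz (log2 fold change -1.06 ± 0.15, adjusted p = 7.33e-05). Its groups were apart, and it was the only 1 of 16 tested genes of IGF signaling that was called. Gdnf, a neurotrophic factor that muscle supplies to motor neurons, ranged from 34.1 to 61.7 CPM at 1 Hz (median 55.4 CPM) and 19.2 to 28.1 CPM at 4 Hz (median 25.2 CPM) and was 2.20-fold lower (log2 fold change -1.13 ± 0.13, adjusted p = 3.83e-06), with 1 Hz library 1 closest to the 4 Hz group. Of 31 tested myokines, 2 were called, both lower, against 1.40% of all genes lower. These were Bdnf (-0.57 ± 0.16, adjusted p = 0.0177), a neurotrophin, and Apln (-0.57 ± 0.13, adjusted p = 0.00411), the apelin precursor. Without 4 Hz libraries 3, 4, and 5, 1 myokine was lower, and Bdnf was at -0.55 with an adjusted p of 0.103. After the correction for length and GC content 6 were lower, as were 6 in limma on log2(TPM + 1).

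Matrix and adhesion genes were also lower where they passed the test. Of 35 tested matricellular proteins and matrix enzymes, 6 were lower and 0 higher, with a median log2 fold change of -0.30, and 8 were lower with the adjusted p alone, against 1.40% and 6.56% of all genes. Without 4 Hz libraries 3, 4, and 5, 3 were lower at a median of -0.28. Ccn1 (chr3:145352720-145355738), a secreted integrin ligand that belongs to this list and to the immediate-early genes, ranged from 134 to 235 CPM at 1 Hz (median 189 CPM) and 71.4 to 133 CPM at 4 Hz (median 79.9 CPM). The groups just failed to meet, and 4 Hz library 2 lay far above the rest of its group (log2 fold change -1.04 ± 0.18, adjusted p = 0.000481). Ccn2, its relative and also on both lists, had a log2 fold change of -0.64 ± 0.16 (adjusted p = 0.00869). Adamts1, a secreted protease that cleaves proteoglycans, was lower at 101, 120.2, and 128 CPM at 1 Hz and 58.9, 67.3, and 73.0 CPM at 4 Hz for its lowest, median, and highest libraries (log2 fold change -0.80 ± 0.10, adjusted p = 1.03e-05), and Mmp19, a matrix metalloproteinase, overlapped slightly (-0.67 ± 0.14, adjusted p = 0.00329). Among laminins, integrins, and the dystrophin complex, 3 of 26 were lower (1.40% of all genes) and 0 higher, at a median of -0.22 (-0.09 after the correction for length and GC content). Itgb3, the β3 integrin subunit, accounted for the clearest of these and ranged from 49.7 to 73.7 CPM at 1 Hz (median 67.8 CPM) and 30.7 to 40.8 CPM at 4 Hz (median 32.4 CPM) (log2 fold change -0.97 ± 0.11, adjusted p = 3.58e-06). Of the 12 fibroblast markers 7 were tested, 3 with positive and 4 with negative fold changes (median -0.31, up to 0.52), at a summed level of 672 to 953 CPM at 1 Hz and 525 to 769 CPM at 4 Hz. None of the 7 was called by edgeR (4 at an unadjusted p below 0.05), DESeq2 called 1 higher and limma 1 lower, and their part in the matrix values was not tested. The calls of the laminin chains were less stable, since Lama4 (-1.05 ± 0.29) was lost without 1 Hz library 4 (adjusted p = 0.0534) and Lamb1 (-0.52 ± 0.17) was lost in 10 of the 12 fits without 1 library, that is in all but those without 1 Hz library 1 and 4 Hz library 6 (adjusted p up to 0.104). Of 23 tested collagen chains, Col16a1 was called (-0.80 ± 0.25), and it was lost without 1 Hz library 4 or 6 or 4 Hz library 1, 2, 4, or 5 (adjusted p up to 0.123). The adjusted p was 0.0854 for Ccn2, 0.121 for Lama4, 0.202 for Lamb1, and 0.149 for Col16a1 without 4 Hz libraries 3, 4, and 5. Their log2 fold changes in that smaller fit were -0.62, -0.93, -0.50, and -0.81, in the same order.

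**Figure D2:**
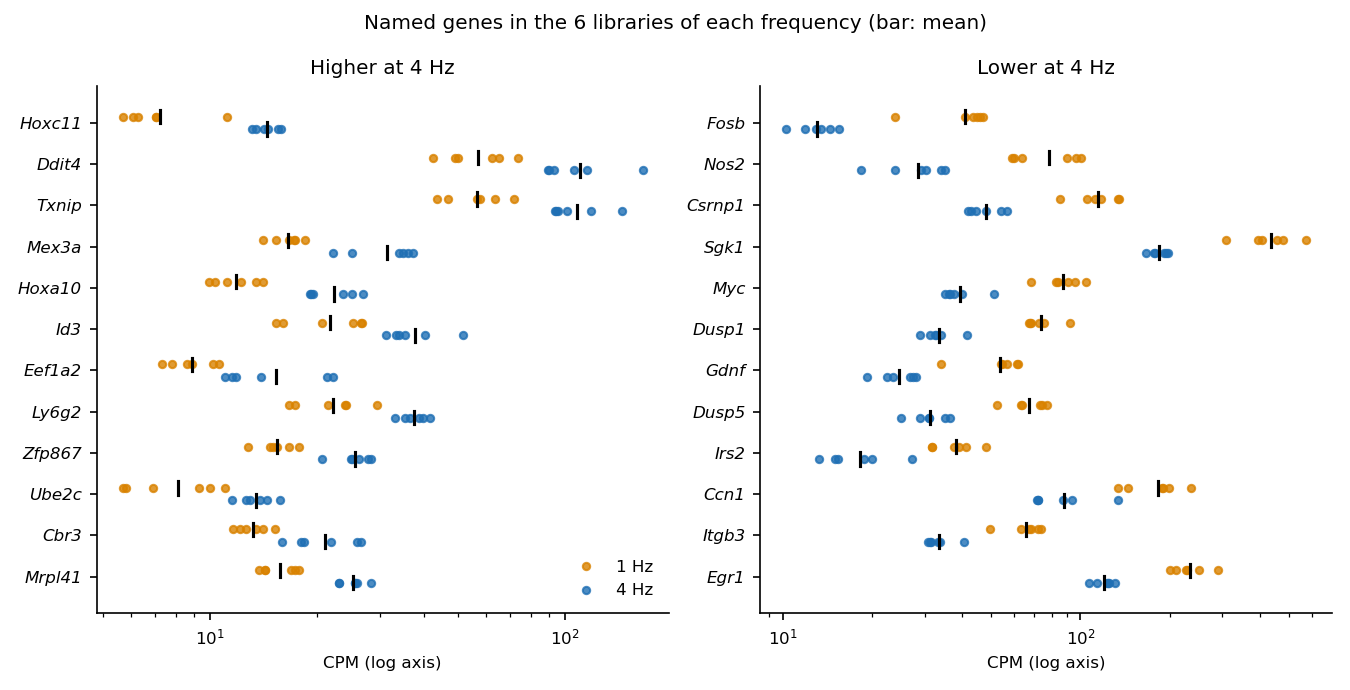
CPM on a log axis in each of the 6 libraries at 1 Hz (orange) and at 4 Hz (blue) for the 12 genes with the largest increase and the 12 with the largest decrease under the naming rule, with black bars at the group means. The rule kept only genes whose groups do not overlap. Of all 399 calls, 133 remain past the threshold without 4 Hz libraries 3, 4, and 5. All 24 remain too, but the rule picked them from these same libraries for large, separate changes, so this is no independent check. Fosb has the largest fold change, at 23.9 to 47.1 CPM against 10.3 to 15.5 CPM.

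The genes that were higher at 4 Hz included posterior Hox genes, which set position along the body axis and keep their pattern in cultured cells. Hoxc11 (chr15:102862862-102866143, 2 exons) ranged from 5.67 to 11.2 CPM at 1 Hz (median 6.66 CPM) and 13.1 to 15.9 CPM at 4 Hz (median 14.4 CPM). The highest 1 Hz value was that of library 1 and lay below every 4 Hz library, and the gene was 2.02-fold higher (log2 fold change 1.02 ± 0.13, adjusted p = 2.84e-05). Hoxa10 had a median of 11.7 CPM at 1 Hz (range 9.90 to 14.1) and of 21.6 CPM at 4 Hz (range 19.1 to 26.9), without overlap (log2 fold change 0.90 ± 0.13, adjusted p = 7.33e-05). Of 14 tested Hox genes, a list chosen after its values were seen, 4 were higher (1.59% of all genes) and 0 lower with a median of 0.41. The other called members, Hoxc9 (0.63 ± 0.18) and Hoxa9 (0.52 ± 0.17), overlapped between the groups, and their calls were less stable. Hoxc9 was lost without 1 Hz library 3, 4, or 6 (adjusted p up to 0.0516), and Hoxa9 in 8 of the 12 fits without 1 library, those 3 included (adjusted p up to 0.101), so that 2 Hox genes remained in these 3 fits. Their adjusted p was 0.149 and 0.293 without 4 Hz libraries 3, 4, and 5.

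Other genes of the 12 with the largest increase were not from 1 list. Ddit4 (chr10:59785491-59788492), an inhibitor of mTORC1 that responds to stress, ranged from 42.3 to 73.5 CPM at 1 Hz (median 56.2 CPM) and 89.5 to 165 CPM at 4 Hz (median 99.5 CPM). All 4 Hz libraries were above all 1 Hz libraries, and the gene was 1.93-fold higher (log2 fold change 0.95 ± 0.16, adjusted p = 0.000362). Txnip (chr3:96465267-96469201, 8 exons), an arrestin-like protein that lowers glucose uptake and binds thioredoxin, ranged from 43.4 to 71.9 CPM at 1 Hz (median 57.1 CPM) and 93.5 to 144 CPM at 4 Hz (median 98.6 CPM) and was 1.92-fold higher (log2 fold change 0.94 ± 0.18, adjusted p = 0.00122). Txnip was the only called gene of 30 tested for glycolysis and glycogen, whose median was -0.11. Its promoter is shown for the tandem CACGAG motif, in the arrangement of a carbohydrate response element, a motif chosen with the sequence in view. The 250 bases before the RefSeq start (plus strand, chr3:96557707-96557956 in GRCm38.p6) hold 2 copies of CACGAG with 5 bases between them at 85 to 69 bases upstream, in capitals with those bases, and this arrangement was found on either strand in 1 of 32851 promoters.
Txnip: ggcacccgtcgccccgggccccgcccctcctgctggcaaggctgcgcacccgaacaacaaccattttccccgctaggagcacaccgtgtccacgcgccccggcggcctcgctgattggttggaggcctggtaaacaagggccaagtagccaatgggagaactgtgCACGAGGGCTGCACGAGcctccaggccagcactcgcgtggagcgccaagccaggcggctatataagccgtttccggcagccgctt
Id3 and Id1, inhibitors of the basic helix-loop-helix factors that drive muscle differentiation, were both higher. Id3 ranged from 15.3 to 26.7 CPM at 1 Hz (median 22.9 CPM) and 31.3 to 51.6 CPM at 4 Hz (median 34.8 CPM) without overlap (log2 fold change 0.80 ± 0.17, adjusted p = 0.00382), and Id1 overlapped (0.67 ± 0.17, adjusted p = 0.0128). Id2 did not pass (0.09 ± 0.09). Id1 and Id3 were the called members of 31 tested genes of TGF-beta, activin, and BMP signaling.

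The other named increases were of varied function. Mex3a, an RNA-binding protein, ranged from 14.1 to 18.5 CPM at 1 Hz (median 16.9 CPM) and 22.2 to 37.2 CPM at 4 Hz (median 34.5 CPM) (log2 fold change 0.93 ± 0.14, adjusted p = 0.000187). Eef1a2, the translation elongation factor form of mature muscle and neurons, had a median of 8.74 CPM at 1 Hz (range 7.33 to 10.6) and of 12.9 CPM at 4 Hz (range 11.04 to 22.2) (log2 fold change 0.79 ± 0.21, adjusted p = 0.0130), but on log2(TPM + 1) its value of 0.54 was not called. Cbr3, a carbonyl reductase, and Ly6g2, a GPI-anchored surface protein of a gene cluster with close relatives among which reads may be shared, had log2 fold changes of 0.68 ± 0.14 (adjusted p = 0.00221) and 0.77 ± 0.17 (adjusted p = 0.00323). Ube2c, the ubiquitin-conjugating enzyme of the anaphase-promoting complex, ranged from 5.67 to 11.03 CPM at 1 Hz (median 8.12 CPM) and 11.5 to 15.7 CPM at 4 Hz (median 13.4 CPM) (log2 fold change 0.69 ± 0.16, adjusted p = 0.00469), but on log2(TPM + 1) its value of 0.38 was not called. The cell cycle list as a whole held 1 higher and 1 lower of 38 tested, with a median of 0.07. Its lower member was E2f1 (-0.63 ± 0.11, adjusted p = 0.000850), a factor for entry into S phase, and its higher member Ccnb1 (0.72 ± 0.24) lost its call in all of the 12 fits without 1 library except those without 1 Hz library 4 and 4 Hz libraries 1 and 5 (adjusted p up to 0.1101), and without 4 Hz libraries 3, 4, and 5 together (0.0713). Zfp867, a zinc finger protein, had a median of 15.2 CPM at 1 Hz (range 12.8 to 17.8) and of 25.7 CPM at 4 Hz (range 20.6 to 28.4), without overlap (log2 fold change 0.72 ± 0.13, adjusted p = 0.000823). The 307 tested genes with Zfp symbols were chosen after their values were seen. Of these, 26 were higher and 6 lower (1.59% and 1.40% of all genes), at a median of 0.12. On log2(TPM + 1), however, 5 were higher and 10 lower at a median of 0.00. Without 4 Hz libraries 3, 4, and 5, 5 were higher and 1 lower at a median of 0.08. The largest fitted changes of all genes were those of Pagr1a (3.42), at 0 to 1.76 CPM at 1 Hz (median 0.0681 CPM) and 0 to 18.9 CPM at 4 Hz (median 0.876 CPM), and of the pseudogene Gm12481 (-5.19), at 0 to 11.8 CPM at 1 Hz (median 1.75 CPM) and 0 to 0.531 CPM at 4 Hz (median 0 CPM), so that both rested on a few libraries, and without 4 Hz libraries 3, 4, and 5 neither was called (adjusted p = 0.793 and 0.195), with Pagr1a at 0.63.

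Mitochondrial genes that passed the test were higher at 4 Hz, in the mitochondrial genome and in the nucleus. Transcripts of the mitochondrial genome took 1.46 to 2.47% of counts at 1 Hz and 1.80 to 4.71% at 4 Hz. The means were 1.88 ± 0.369% and 2.97 ± 1.22% (SD, n = 6 each, p = 0.0758 in a 2-sided exact permutation test, 0.177 after Benjamini-Hochberg (BH) adjustment over 7 composition measures). Only 4 Hz libraries 3, 4, and 5 lay above the 1 Hz range, and libraries 1, 2, and 6 were at 1.94, 2.01, and 1.80%, inside it. Without 1 Hz library 1 the exact p was 0.0433. Of the 13 protein-coding genes of this genome, 6 were higher and 0 lower with a median log2 fold change of 0.70. Without 4 Hz libraries 3, 4, and 5, the median was 0.01 and edgeR called 0. After the correction for length and GC content, with all libraries kept, the median was 0.27 and 0 were called. Without 1 library at a time the number called was 2 (without 4 Hz library 5), 3 (without 4 Hz library 3 or 4, or 1 Hz library 5 or 6), or 4 to 9. The largest value was that of mt-Nd6, the complex I subunit on the light strand, at 40.7 to 75.2 CPM at 1 Hz (median 47.5 CPM) and 55.6 to 239.5 CPM at 4 Hz (median 99.9 CPM) (log2 fold change 1.23 ± 0.29, adjusted p = 0.00653), which was 0.29 without the 3 libraries (adjusted p = 0.542). It lies opposite heavy-strand transcripts, and the libraries were directional, but the sources used here do not state the strand setting of the quantification. mt-Co1, the catalytic subunit of cytochrome c oxidase, had a median of 6215 CPM at 1 Hz (range 5117 to 8239) and of 10152 CPM at 4 Hz (range 6697 to 17427) (log2 fold change 0.80 ± 0.19, adjusted p = 0.00809, or 0.544 without the 3 libraries). The calls of mt-Nd1, mt-Cytb, and mt-Nd4 were each lost without 1 Hz library 4, 5, or 6 or 4 Hz library 3, 4, or 5 (adjusted p up to 0.1498, 0.0870, and 0.133), those of mt-Nd1 and mt-Nd4 also without 1 Hz library 2 and that of mt-Nd1 without 1 Hz library 1, and that of mt-Nd5 was lost without 4 Hz library 5 (adjusted p = 0.0584). Nuclear-encoded ribosomal RNA took 0.268 ± 0.200% of counts at 1 Hz and 0.309 ± 0.159% at 4 Hz (SD, n = 6 each, exact permutation p = 0.677).

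**Figure D3:**
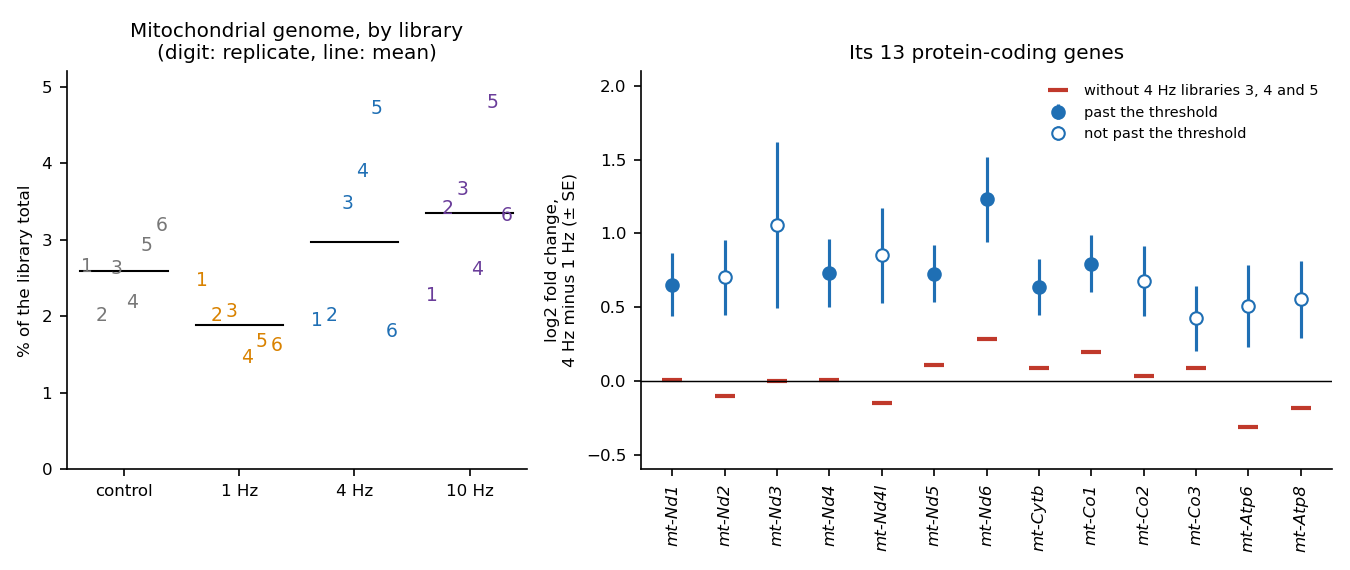
Left, percent of the library total from the mitochondrial genome in all 24 libraries, with digits for the replicate number and lines for the mean of 6. Right, log2 fold change (4 Hz minus 1 Hz) with its SE for its 13 protein-coding genes, with red bars for the value without 4 Hz libraries 3, 4, and 5, the 3 that lie above every 1 Hz library, and the median of 0.70 falls to 0.01 without them.

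Nuclear genes for the mitochondrion had smaller fold changes, and their group medians stayed above 0 without those libraries. All 36 tested nuclear subunits of complex I, the NADH dehydrogenase, had positive fold changes, with a median log2 fold change of 0.30. With the adjusted p alone 19 were higher and 0 lower, against 5.71% and 6.56% of all genes, and 1 was called, Ndufs4 (0.50 ± 0.12, adjusted p = 0.00704), a subunit of the electron input module, which was at 0.28 (adjusted p = 0.229) without 4 Hz libraries 3, 4, and 5 and at 0.31 (adjusted p = 0.0692) with the mitochondrial share as a covariate. The 41 subunits of complexes II to V had a median of 0.29, with 23 higher and 0 lower by the adjusted p. None of the 41 was called by edgeR, DESeq2, or limma, and 32 had an unadjusted p below 0.05 in edgeR. Mitochondrial ribosomal proteins, which translate the 13 mitochondrial mRNAs, had a median of 0.24 over 78 genes, with 30 higher and 0 lower by the adjusted p. Of these, 4 were called, and after the correction for length and GC content 1 was, Mrpl41. Mrpl13, Mrps22, and Mrpl1 were at 0.44, 0.37, and 0.45 after that correction. Mrpl41 (chr2:24862319-24865956) ranged from 13.7 to 17.8 CPM at 1 Hz (median 15.6 CPM) and 23.0 to 28.4 CPM at 4 Hz (median 25.6 CPM), without overlap (log2 fold change 0.68 ± 0.09, adjusted p = 2.48e-05), Mrpl13 and Mrps22 had values of 0.55 ± 0.09 and 0.54 ± 0.09 (Mrpl13 at 0.46, no longer called, without 4 Hz libraries 3, 4, and 5), and Mrpl1 (0.50 ± 0.16) lost its call without 1 Hz library 4, 5, or 6 or 4 Hz library 2, 3, 4, or 5 (adjusted p up to 0.105, or 0.456 without the 3 libraries together). Without 4 Hz libraries 3, 4, and 5, the 3 medians were 0.33, 0.34, and 0.30, with 16, 18, and 23 genes higher by the adjusted p.

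Other housekeeping lists also had positive medians. Cytosolic ribosomal proteins had a median of 0.21 over 80 genes, with 21 higher and 0 lower by the adjusted p (5.71% and 6.56% of all genes), and proteasome subunits a median of 0.24 over 35 genes, with 15 higher and 0 lower. None of the 80 or 35 was called by edgeR (39 and 19 at an unadjusted p below 0.05), DESeq2 called 1 of the 80 higher, and limma called 0. The correction for length and GC content lowered the medians to 0.18 for complex I, 0.16 for complexes II to V, 0.18 for the mitochondrial ribosome, 0.10 for the cytosolic ribosome, and 0.13 for the proteasome, and on log2(TPM + 1) they were 0.16, 0.17, 0.12, 0.09, and 0.14. All stayed above 0 where the median of all genes on that scale was -0.10. The 100 most abundant genes took 18.98 ± 0.542% of counts at 1 Hz and 21.0 ± 0.820% at 4 Hz (SD, n = 6 each, p = 0.00649 in an exact permutation test, 0.0455 after BH adjustment).

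**Figure D4:**
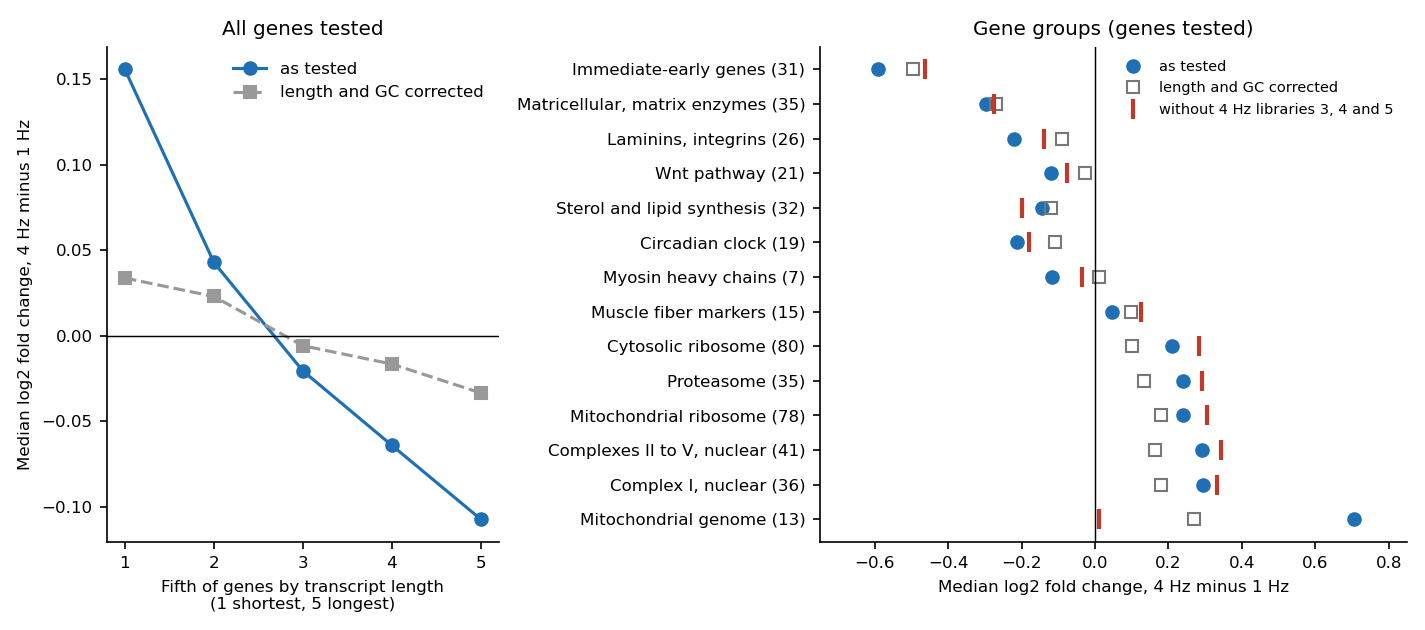
Left, median log2 fold change (4 Hz minus 1 Hz) of genes by class of transcript length (5 equal classes), as tested and after correction for length and GC content, falling from 0.16 in the shortest to -0.11 in the longest class. Right, the median of 14 gene groups with the number of genes tested, as tested, corrected, and without 4 Hz libraries 3, 4, and 5, from -0.59 for immediate-early genes to 0.70 for the mitochondrial genome.

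Few contractile genes were called. Of 7 tested myosin heavy chains, the motors that set fiber type, 0 were called in edgeR at 0.5 or by the adjusted p alone. Myh3, the embryonic form, ranged from 665 to 1099 CPM at 1 Hz (median 762 CPM) and 747 to 1092 CPM at 4 Hz (median 813 CPM) (log2 fold change 0.03 ± 0.19, adjusted p = 0.951). Myh7, the slow form, was at -0.08 ± 0.20 (adjusted p = 0.839), and the fast forms Myh1 and Myh4 were at -0.12 ± 0.21 (adjusted p = 0.774) and -0.46 ± 0.19 (adjusted p = 0.103). At an unadjusted p below 0.05, 1 of the 7 passed in edgeR, DESeq2 called 0, and limma on log2(TPM + 1) called 1 lower. Of the 15 fiber markers, edgeR, DESeq2, and limma called 0, with 4 at an unadjusted p below 0.05 in edgeR and 1 past the adjusted p alone. Skeletal actin Acta1 was at 0.06 ± 0.15 (adjusted p = 0.854) and creatine kinase Ckm at 0.03 ± 0.15 (adjusted p = 0.937).

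Single genes of the contractile system were called. Pvalb, a calcium buffer of fast fibers that speeds relaxation, ranged from 3.93 to 12.1 CPM at 1 Hz (median 7.67 CPM) and 10.1 to 17.5 CPM at 4 Hz (median 14.4 CPM), with a slight overlap (log2 fold change 0.90 ± 0.20, adjusted p = 0.00473). It was the only called gene of 19 fast sarcomere isoforms and of 38 genes of excitation-contraction coupling. Tmod4, which caps the thin filament, had a median of 2.95 CPM at 1 Hz (range 2.17 to 4.23) and of 5.69 CPM at 4 Hz (range 4.46 to 7.01) and no overlap (log2 fold change 0.97 ± 0.25, adjusted p = 0.0136). It was the only call among 35 genes of the sarcomere frame. Without 4 Hz libraries 3, 4, and 5 its adjusted p was 0.0649 at a log2 fold change of 1.03. Developmental and slow isoforms had a median of 0.24 over 19 genes, with 2 higher by the adjusted p alone and 0 called by edgeR (7 at an unadjusted p below 0.05), while DESeq2 called 1 higher and limma 0. The acetylcholine receptor and synapse genes (15 tested) and calcineurin, NFAT, and PGC-1 genes (23 tested) had 0 calls by edgeR, DESeq2, or limma, with medians of -0.10 and 0.01 and with 0 and 2 genes at an unadjusted p below 0.05 in edgeR. Among 19 myogenic transcription factors, Six4 alone was called (0.65 ± 0.20), and it lost the call without 1 Hz library 3, 4, 5, or 6 or 4 Hz library 2, 3, 4, or 5 (adjusted p up to 0.0887), and without 4 Hz libraries 3, 4, and 5 together (adjusted p = 0.241). Myog, which drives terminal differentiation, ranged from 376 to 449.9 CPM at 1 Hz (median 409 CPM) and 464 to 622 CPM at 4 Hz (median 522 CPM), so its groups did not overlap, but its adjusted p was 0.0887 (log2 fold change 0.38 ± 0.15). Carbonic anhydrase Car3, abundant in slow muscle and in fat, was higher (0.67 ± 0.18, adjusted p = 0.0170). The adjusted p of Car3 was 0.140 without 4 Hz libraries 3, 4, and 5. It is 1 of the 10 adipocyte markers and made up nearly all of their sum, which was 107 to 161 CPM at 1 Hz and 169 to 273 CPM at 4 Hz, while 4 of the 10 were at 0 in all 1 Hz libraries and 1 in all 4 Hz libraries. The only other tested marker, Lipe, was lower (-0.60). Notch3, a receptor of reserve cells and of pericytes, was lower (-0.64 ± 0.15, adjusted p = 0.00603), and without 4 Hz libraries 3, 4, and 5 its adjusted p was 0.130. After the correction for length and GC content Notch3 was at -0.43 and no longer called.

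Several regulatory groups held a few called genes. Over all genes tested, 1.59% were called higher and 1.40% lower. Of 21 tested Wnt genes, 3 were lower at a median of -0.12. These were the receptors Fzd4 (-0.61 ± 0.12, adjusted p = 0.00221) and Fzd5 (-0.52 ± 0.10, adjusted p = 0.00124) and the coreceptor Lrp5 (-0.52 ± 0.13, adjusted p = 0.00953). After the correction for length and GC content, 1 Wnt gene was lower, Fzd4 (-0.53), and the median was -0.03. Fzd5 and Lrp5 were each at -0.37 and no longer called. In the circadian clock, 2 of 19 were lower at a median of -0.21. These were Arntl, the BMAL1 activator (-0.62 ± 0.15, adjusted p = 0.00831), and Nr1d1, the REV-ERBα repressor of Arntl (-0.67 ± 0.16, adjusted p = 0.00630), and the 6 and 6 libraries of each were apart. In cholesterol and fatty acid synthesis, 9 of 32 were lower by the adjusted p alone (6.56% of all genes), at a median of -0.15. Of these, 1 was called, Srebf1 (-0.58 ± 0.14, adjusted p = 0.00656), a master regulator of lipid synthesis. Srebf1 was at -0.45, no longer called, after the correction for length and GC content. Without 4 Hz libraries 3, 4, and 5, the calls of Fzd5 (-0.45), Lrp5 (adjusted p = 0.135), Nr1d1 (adjusted p = 0.136), and Srebf1 (-0.33, adjusted p = 0.204) were lost. Plk2, a kinase that p53 induces, was lower among p53 targets (-0.62 ± 0.12, adjusted p = 0.00134). Slc7a1, the arginine and lysine transporter, was lower among ATF4 targets (-0.61 ± 0.10, adjusted p = 0.000392), where Ddit4 was higher. The same correction left Slc7a1 at -0.47, no longer called. Sesn2, of both lists, was lower (-0.61 ± 0.18) but lost its call without 1 Hz library 4 or 5 or 4 Hz library 2, 4, or 5 (adjusted p up to 0.0752). Nfkbia, the inhibitor of NF-κB, was the only call of 18 cytokine and chemokine genes (-0.52 ± 0.13, adjusted p = 0.00849). Of the remaining lists, surface channels and transporters held 2 higher of 27, Car3 and Car14 (0.73 ± 0.20, lost without 1 Hz library 5 at an adjusted p of 0.0532). Cytoskeleton and intermediate filament genes held 1 lower of 20, Krt19 (-0.65 ± 0.18, lost without the same library at an adjusted p of 0.0515). Lipe, the hormone-sensitive lipase, was the call among 12 adipogenic genes (-0.60 ± 0.19) and was lost in all of the 12 fits without 1 library except those without 1 Hz libraries 3 and 4 and 4 Hz libraries 2 and 6 (adjusted p up to 0.139). Of 19 nuclear and host long noncoding RNAs 2 were higher, among them Kcnq1ot1 (1.03 ± 0.30), an imprinted antisense transcript, which was lost without 1 Hz library 3 or 4 Hz library 3 or 5 (adjusted p up to 0.0650). Of 26 hypoxia-inducible genes, Ddit4 was higher and Car12, a carbonic anhydrase of the cell surface, was lower (-0.67 ± 0.16, adjusted p = 0.00728). By the same rule 0 genes were called among 23 of ER folding, 23 cytosolic heat shock proteins, 30 antioxidant genes, 16 interferon-stimulated genes, 22 atrophy and FoxO genes, and 33 of autophagy and lysosome in edgeR, with 10, 6, 6, 5, 8, and 16 at an unadjusted p below 0.05. DESeq2 called 1 of the heat shock proteins higher, and limma called 1 of the interferon-stimulated genes and 2 of autophagy and lysosome lower. Further calls of these lists that were lost without 4 Hz libraries 3, 4, and 5 were those of Plk2 (-0.49, adjusted p = 0.0527), Sesn2 (0.214), Nfkbia (-0.35, adjusted p = 0.199), Car12 (0.0778), Car14 (0.0936), Krt19 (-0.38, adjusted p = 0.293), Lipe (0.323), and Kcnq1ot1 (0.45, adjusted p = 0.464), where a single value is the adjusted p.

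The levels in unstimulated tissues and at 10 Hz place these differences, although small RNA was far higher there than at 1 and 4 Hz, a difference whose part in these values was not tested. Fosb averaged 23.3 ± 5.64 CPM in control, 41.1 ± 8.67 at 1 Hz, 13.1 ± 1.85 at 4 Hz, and 17.0 ± 6.36 at 10 Hz (SD, n = 6 each here and in the next sentences). Sgk1 averaged 277 ± 17.9, 437 ± 89.8, 184 ± 11.8, and 171 ± 30.5 CPM in that order. For both genes the highest mean was at 1 Hz. Gdnf shared this order at the top, with 53.7 ± 10.2 CPM at 1 Hz and means of 24.6, 24.6, and 24.6 CPM in control, at 4 Hz, and at 10 Hz. Arc was lowest in control (35.4 ± 7.92 CPM) and at 10 Hz (48.2 ± 12.5), highest at 1 Hz (176 ± 41.6), and in between at 4 Hz (111 ± 24.7). Egr1 and Ccn1 had another pattern, with their highest means in control. Egr1 averaged 272 ± 49.6, 234 ± 32.8, 120.3 ± 8.74, and 128 ± 31.6 CPM in control and at 1, 4, and 10 Hz. Ccn1 averaged 380.5 ± 41.1, 182 ± 37.2, 88.3 ± 23.95, and 168 ± 52.0 CPM.

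Among the genes higher at 4 Hz than at 1 Hz, Txnip and Hoxc11 had their lowest mean at 1 Hz. Txnip averaged 179.7 ± 51.3, 56.6 ± 10.5, 108 ± 20.0, and 188 ± 51.7 CPM in control and at 1, 4, and 10 Hz (SD, n = 6 each). Hoxc11 averaged 17.7 ± 0.955, 7.21 ± 2.02, 14.5 ± 1.11, and 19.5 ± 3.18 CPM. For both, the 1 Hz libraries lay below all others of the series, and the 4 Hz mean lay between 1 Hz and control. Ddit4 was instead highest with faster light, at 72.8 ± 16.6, 57.0 ± 11.8, 109.9 ± 28.9, and 105 ± 13.8 CPM. Comparisons of 4 Hz with control and of 1 Hz with control share the control libraries, and those of 4 Hz with 10 Hz and with 1 Hz share the 4 Hz libraries, so these means are given as levels without a test.

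**Figure D5:**
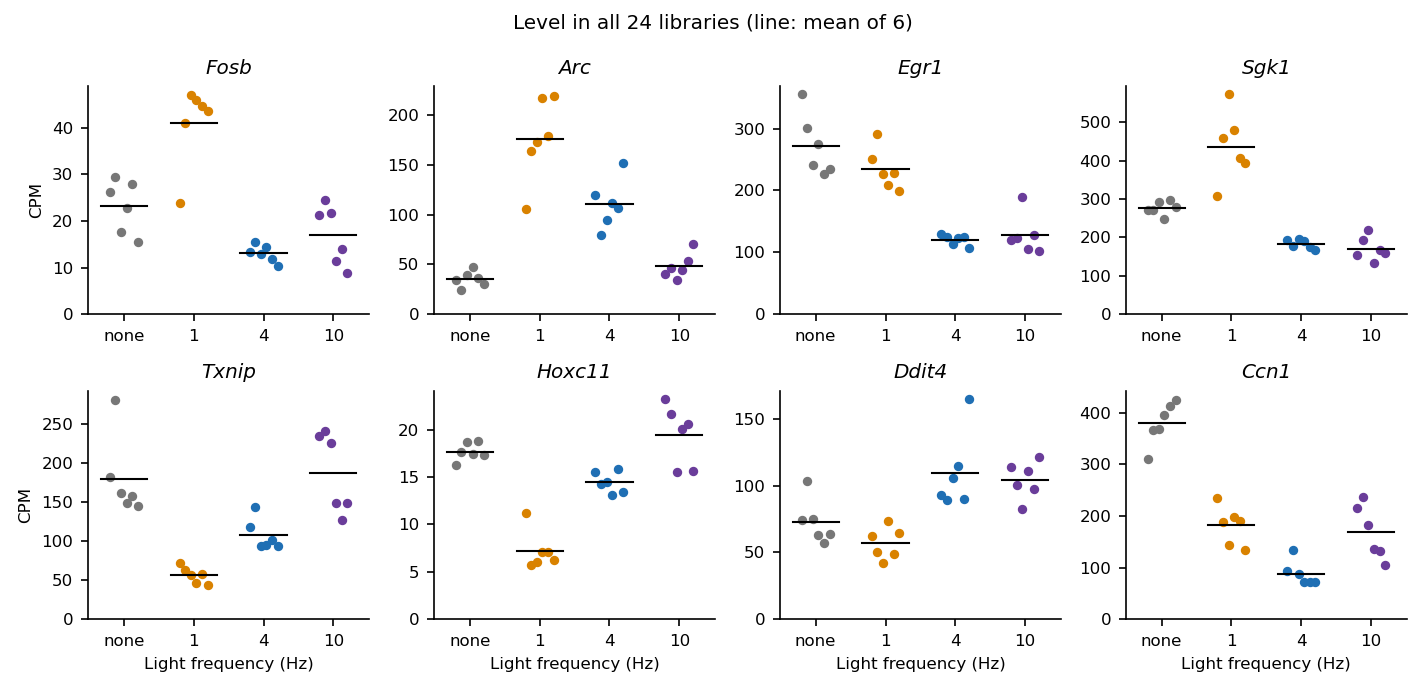
CPM of 8 genes in all 24 libraries by light frequency, with lines for the mean of 6. Fosb, Arc, and Sgk1 are highest at 1 Hz (means of 41.05, 176, and 437 CPM), Egr1 and Ccn1 are highest in control, Txnip and Hoxc11 are lowest at 1 Hz, and Ddit4 is higher at 4 and 10 Hz than in control and at 1 Hz.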

How the data were processed

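Directional RNA-seq libraries (poly(A) selection, with ribosomal depletion for low-input samples that the sources used here do not name) were sequenced as paired 50-base reads by the study, aligned to GRCm39 with nf-core/rnaseq, and quantified with salmon. The authors deposited estimated counts per gene and TPM values for 24 libraries. Estimated counts were rounded and tested with edgeR 4.0.16 (TMM scaling, filterByExpr, all 24 libraries sharing 1 estimate of the spread, quasi-likelihood test, BH adjustment) in R 4.3.3, and 13318 of 56941 genes passed the filter. CPM of single genes uses TMM-scaled totals, sums over lists and small RNA the unscaled total, and SE is the fold change over the root of F. DESeq2 1.42.0 and limma 3.58.1 were alternatives, limma on the deposited TPM with a pseudocount of 1. Genes named were the 12 largest called changes each way with a mean of at least 10 CPM and no overlap, leaving out predicted genes and pseudogenes, plus up to 4 called members per list with a mean of at least 2 CPM. Others were named for their role after their values were seen. The comparison, the members, and the lists were chosen with earlier results of these data known. The labels give neither batches nor separate cultures, so p-values measure the spread between these libraries. Promoters came from RefSeq (GRCm38.p6), and gene positions from GENCODE M39.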

Additional observations from a re-analysis of the deposited data

Results flagged for a closer look

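In 13 of 142 groups of 6 libraries, the highest or lowest library lay so far from the others that its gap exceeded 0.625 of the group's range (Dixon's critical value), which chance gives in about 1 of 20 groups. Of these, 5 concerned 1 Hz library 1, with 11.2 CPM for Hoxc11, 23.9 for Fosb, 92.1 for Dusp1, 34.1 for Gdnf, and 5.78 for Kcnq1ot1. The others of that group held 5.67 to 7.06, 40.9 to 47.1, 67.2 to 75.2, 54.0 to 61.7, and 1.73 to 3.18 CPM, and this library also held the highest small RNA level of the 12 (32.9 CPM). Ccn1 (133 CPM), Itgb3 (40.8 CPM), and Fzd5 (41.1 CPM) were high in 4 Hz library 2, where the others held 71.4 to 93.8, 30.7 to 33.7, and 24.97 to 30.8 CPM. Ddit4 (165 CPM, others 89.5 to 115) and Myc (51.2 CPM, others 35.1 to 39.9) were high in 4 Hz library 6. mt-Nd6 was high in 1 Hz library 3 (75.2 CPM, others 40.7 to 51.7), Col16a1 in 1 Hz library 4 (12.3 CPM, others 5.97 to 7.96), and Fzd4 in 4 Hz library 3 (16.1 CPM, others 9.30 to 11.8).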

How the results depend on the processing

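Over 29 alternatives and 64 named genes, 33 genes kept an adjusted p below 0.05 in the same direction under all. This count set no minimum fold change. After the correction for length and GC content, for example, Fzd5 was at -0.37 and Mrps22 at 0.37, inside the threshold of 0.5. Of 1849 values, 1655 kept that adjusted p, 193 kept their sign without it, and 1 reversed. The reversed value was mt-Nd4 at -0.026 with the mitochondrial share as a covariate. That covariate gave 292 genes higher and 283 lower. On log2(TPM + 1), log2(TPM + 0.1), and log2(TPM + 1) with no filter, 56, 73, and 40 were higher and 404, 479, and 339 lower, and with median centering 198 and 113. With no minimum fold change, 761 were higher and 873 lower. Without 4 Hz libraries 3, 4, and 5, chosen after seeing the data, 106 were higher and 120 lower. Leaving out 1 library gave 134 (without 1 Hz library 5) to 303 (without 4 Hz library 6) higher and 144 to 227 lower. The difference (4 Hz minus 1 Hz) in mitochondrial genome share ranged from 0.741 to 1.32 percentage points, that of its protein-coding genes from 0.681 to 1.19, and that of genes detected from 528 to 1206. The labels do not say whether replicate numbers pair the samples, and these correlations cannot settle it. Same-numbered libraries correlated at -0.13 to 0.40 (2 of 6 over 0.1), and 2 of 6 libraries at 4 Hz correlated best with their own number at 1 Hz. The replicate block gave 236 higher and 192 lower. The cause of these shifts was not tested. Depth (4.09 M in the smallest library) limits the genes of a few CPM, whose calls are least precise.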
